A study of Mus musculus with 6 samples.

Results

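The mouse genes described here build the red cell: its membrane skeleton and surface proteins, the enzymes that make heme, and the proteins that bring in, use and store iron. They were chosen by name, as 36 gene symbols that leave out the globins and transcription factors; 35 of them had a row in the table of raw read counts, out of 25239 genes in all, and 1 is not analysed here. The counts came from mRNA libraries of yolk sacs at embryonic day 9.5, in 6 libraries. Libraries 1, 2 and 3 labelled DKO came from embryos of mixed background that lack Cdx1 (Cdx1-/-), carry Cdx2 fl/fl and the tamoxifen-dependent Cre transgene Actin::CreERT, and were treated with tamoxifen at embryonic day 5.5. Libraries 1, 2 and 3 labelled WT came from untreated wild-type CD1 embryos. Genotype, transgene, strain and tamoxifen thus differ together between the groups and cannot be told apart, and an actin promoter gives no restriction to the yolk sac or to blood. The labels do not say whether a library is 1 yolk sac or a pool, or whether litters were shared, and a p-value here covers no more than the spread among these samples, which may be technical.

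At this stage the yolk sac is the source of the first, primitive red cells, which enter the circulation as nucleated erythroblasts and mature there. A maturing erythroblast couples heme synthesis to iron uptake: transferrin receptor brings iron in, mitoferrin carries it into the mitochondrion, and ferrochelatase places it into protoporphyrin to give heme for hemoglobin. In the same cells spectrin, ankyrin and their partners form a flexible lattice under the membrane, anchored to the anion exchanger. Most heme enzymes, ferritins and iron-sulphur cluster proteins are also used by other cells, whereas Alas2, the anion exchanger, ankyrin and the Rh proteins are largely confined to red cells.

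Iron itself sets the use of several of these messages through a hairpin, the iron-responsive element, to which the iron regulatory proteins bind. In the 5' UTR it controls translation, and in the 3' UTR of transferrin receptor it controls the stability of the message. A search of GENCODE transcripts (GRCm38) for a C, a paired stem of 5 bases and the loop CAGTGN found a match in the 5' UTR of 3 of the 35 genes and in the 3' UTR of 1, against 0.143% and 0.604% of 13241 tested genes with an annotated UTR. These hairpins are shown because they separate genes whose messages iron treats differently; the loop is in capitals.
Alas2, 5' UTR, chrX:150547458-150552149, plus strand, read across a splice junction: ttggttcgtcctCAGTGCagggcaacagg
Fth1, 5' UTR, chr19:9982732-9982760, plus strand: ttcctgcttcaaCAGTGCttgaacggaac
Ftl1, 5' UTR, chr7:45459779-45459807, minus strand: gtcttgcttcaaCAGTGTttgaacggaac
Tfrc, 3' UTR, the first of 4 matches, chr16:32631219-32631247, plus strand: aattatcggaagCAGTGCcttccataatt
A match is a description of letters in an annotated UTR, and no binding was measured. The search took only this form of stem and loop, so a gene without a match may still carry an iron-responsive element.

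Genes of the red cell also often carry a GATA motif, bound by the erythroid factor GATA1, close to their start. In RefSeq promoters (GRCm38.p6), of which 28 of the 35 genes had an entry, the word AGATAA, the word AGATAG, the word TGATAA or the word TGATAG on either strand lay within 250 bases upstream of a start in 14. The same letters were found in 20.5% of the 11027 tested genes with an entry. Of the genes held mainly to red cells, 9 of 13 had a match, and of the broadly expressed genes 5 of 15, some of which have several start sites and so more windows. A CACCC motif (the word CCACACCC, the word CCCCACCC or the word CCACGCCC, either strand) lay in 5 of the 28, or 17.9%, against 24.8% of tested genes. In DKO library 3 Epor, the erythropoietin receptor gene, and Trim10 stood at 25.3% and 14.1% of the WT mean. Sptb and Tmod1, whose windows held neither motif, stood at 14.9% and 13.1% there. A link between motif and level was not tested. The windows upstream of Epor and Trim10 are shown as examples, with motif matches in capitals.
Epor, chr9:21963577-21963826, minus strand: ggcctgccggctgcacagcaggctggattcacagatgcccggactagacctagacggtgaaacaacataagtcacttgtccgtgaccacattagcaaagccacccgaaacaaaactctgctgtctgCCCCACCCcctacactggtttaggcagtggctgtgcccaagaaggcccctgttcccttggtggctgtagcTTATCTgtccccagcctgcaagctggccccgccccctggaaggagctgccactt
Trim10, chr17:36869324-36869573, plus strand: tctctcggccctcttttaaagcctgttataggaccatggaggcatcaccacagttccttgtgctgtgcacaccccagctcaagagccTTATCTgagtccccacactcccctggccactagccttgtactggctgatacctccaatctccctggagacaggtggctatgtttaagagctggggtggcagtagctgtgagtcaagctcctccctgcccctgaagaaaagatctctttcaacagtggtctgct

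Libraries held between 24242663 and 56732836 counts in DKO and between 20040601 and 26855337 in WT. The targeted gene Cdx2 stood at 23.0, 24.1 and 25.7 CPM (counts scaled to library size, with TMM factors) in DKO libraries 1, 2 and 3, against 16.6, 18.9 and 20.4 CPM in WT libraries 1, 2 and 3, and so was not below WT in any library labelled DKO; the counts cover whole genes and do not show a deleted exon. Cdx1 had 10, 14 and 14 counts in DKO, against 0, 1 and 8 counts in WT. Because neither gene separates the groups as the labels would, every direction below rests on the labels. The DKO libraries differed among themselves more than the WT libraries did: correlations of log2 CPM across genes, which are not independent, ran from 0.925 to 0.969 between DKO libraries, against 0.989 to 0.990 between WT libraries. Library 3 labelled DKO stood farthest apart, and results that rest on it are given with and without it. Adult globin symbols held at most 2 counts in any library. How reads that match several gene copies were counted is not given in the sources used here, so these counts do not show that adult globins were absent.

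Most of the red cell genes had a lower mean level in the DKO libraries, by amounts that differed widely between these libraries, and none of the 35 passed the test. All 35 were kept by the filter on low counts. By edgeR's quasi-likelihood test with Benjamini-Hochberg adjustment, 0 of the 35 genes passed the threshold of 0.05, where 5 of 14002 genes did (0.0357%), and the adjusted p of the 35 ran from 0.432 to 0.886. At an unadjusted p under 0.05 there was 1 of the 35, Alad, which was higher, against 9.09% of all genes (5.55% higher). DESeq2 called 0 of the 35 and 2.06% of all genes, and at its unadjusted p under 0.05 there were 5 of the 35, against 10.9% of all genes. A limma-voom fit that weights each library by its quality called 2 of the 35, Alad and Ftl1, both higher, against 9.96% of all genes higher and 9.04% lower. Of the 35, 29 were lower by log2 fold change (82.9%, against 48.1% of all genes tested), with a median of -0.40 against 0.01 over all genes; without DKO library 3 the count was 24 and the median -0.09. In 4 genes (11.4%) all DKO libraries lay below all WT libraries, against 7.61% of all genes, and in 1 gene (2.86%) above, against 7.93%. The number of all genes called by edgeR rested on single libraries, being 634, 1 and 8 without DKO library 1, 2 or 3 (4.42% and 0.0567% of the genes tested without library 1 and without library 3) and 1, 0 and 1 without WT library 1, 2 or 3 (630 genes had an unadjusted p under 0.05 without WT library 2); none of the 35 was called in any of these fits.

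**Figure D1:**
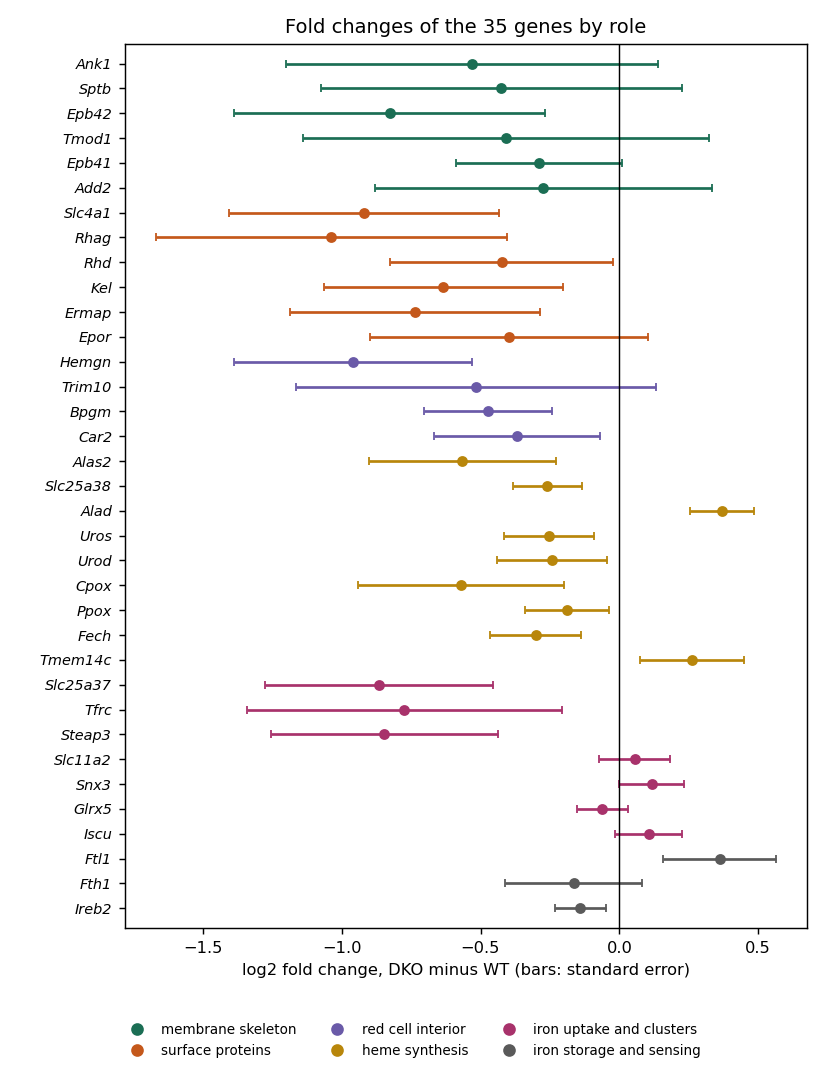
Log2 fold changes (DKO minus WT, x axis) of the 35 genes from edgeR, one row a gene, with bars for the standard error (n = 3 libraries a group) and colours for the role of the gene. All genes of the skeleton, surface and interior lie left of 0, while the heme and iron genes lie on both sides and mostly carry shorter bars.

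The departure from WT was mostly that of DKO library 3. There 19 of the 35 genes stood below 50% of the WT mean (54.3%, against 6.96% of all genes), whereas 1 did in DKO library 1 (2.86%, against 3.98%) and 0 in library 2 (against 2.65%). In DKO library 3, 28 genes lay below all WT libraries (80.0%, against 40.5% of all genes), against 14 in library 1 (40.0%, against 33.7%) and 12 in library 2 (34.3%, against 33.9%). Relative to the mean of the WT libraries, the median of the 35 genes on the log2 scale was -0.08 in DKO library 1, -0.13 in library 2 and -1.17 in library 3, and 0.11, -0.17 and 0.07 in WT libraries 1, 2 and 3. WT library 2 was the lowest WT library for 29 of the 35 genes. In bulk RNA, fewer erythroid cells and less RNA per cell cannot be told apart.

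**Figure D2:**
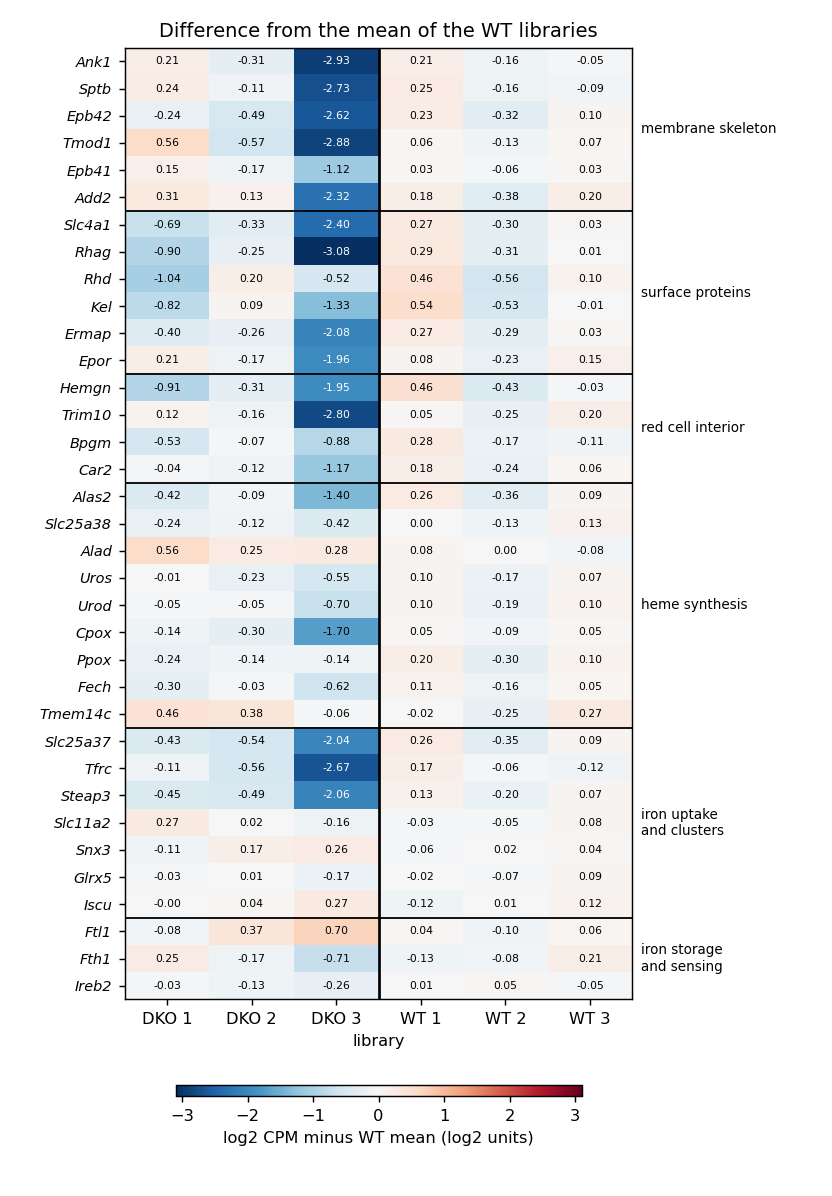
Difference of each library's log2 CPM from the mean of the WT libraries (colour and printed number, in log2 units), with 1 row for each of the 35 genes grouped by role and 1 column for each library, DKO left of WT. The column of DKO library 3 is dark blue for most skeleton and surface genes and for Slc25a37, Tfrc and Steap3, and close to 0 for Ppox, Tmem14c and Glrx5.

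The membrane skeleton had the lowest median of the 6 roles in DKO library 3, -2.68 on the log2 scale relative to the WT mean. Its 6 genes all stood below all WT libraries in DKO library 3, at 13.0% to 45.8% of the WT mean, while none did in DKO library 1. Ank1, ankyrin, which ties spectrin to the anion exchanger, stood at 111, 77.8 and 12.6 CPM in DKO libraries 1, 2 and 3, against 112, 86.2 and 92.8 CPM in WT libraries 1, 2 and 3. Library 1 was thus within the WT range and library 3 far under it, and the log2 fold change was -0.53 (SE 0.67, edgeR adjusted p 0.798; -0.04 without library 3 and -1.11 without library 1). Sptb, the beta chain of red cell spectrin, stood at 232, 182 and 29.5 CPM in the DKO libraries, against 234, 176 and 186 CPM in WT.
Library 3 was also far the lowest in Epb42, a membrane protein bound to the anion exchanger, with 21.4, 17.9 and 4.03 CPM in DKO and 29.5, 20.1 and 26.9 CPM in WT (log2 fold change -0.83, SE 0.56, edgeR adjusted p 0.673; -0.38 without library 3). Tmod1, tropomodulin, which caps the short actin filaments of the lattice, had 17.7, 8.08 and 1.57 CPM in DKO and 12.5, 10.9 and 12.6 CPM in WT. In Tmod1 the DKO libraries lay on both sides of WT, with library 1 above and libraries 2 and 3 below, and the fold change turned to 0.09 without library 3 (-0.41 with it, SE 0.73). Epb41, which strengthens the junctions of spectrin with actin and is made in many cells, stood at 111%, 89.1% and 45.8% of the WT mean in DKO libraries 1, 2 and 3. Add2, beta-adducin, which joins spectrin to actin, stood at 122%, 107% and 19.6% of it.

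Among the surface genes DKO library 1 was low as well as library 3. In library 1, 5 of the 6 lay below all WT libraries, Epor being the exception. Slc4a1, the anion exchanger that carries bicarbonate and anchors the skeleton, stood at 249, 318 and 76 CPM in DKO libraries 1, 2 and 3, against 483, 324 and 410.3 CPM in WT libraries 1, 2 and 3. All DKO libraries lay below all WT libraries, the gap between DKO library 2 and WT library 2 being small, and the log2 fold change was -0.92 (SE 0.49, edgeR adjusted p 0.616; -0.52 without DKO library 3).
Rhag, the Rh-associated glycoprotein, a gas and ammonium channel, had the most negative fold change of the 35 genes, -1.04 (SE 0.63, edgeR adjusted p 0.642; -0.56 without DKO library 3 and -1.67 without DKO library 2). Its level was 11.8, 18.5 and 2.55 CPM in DKO and 27.0, 17.8 and 22.3 CPM in WT, so DKO library 2 lay inside the WT range. Its relative Rhd, the Rh antigen carrier, behaved otherwise, with 2.63, 6.33 and 3.81 CPM in DKO and 7.57, 3.69 and 5.91 CPM in WT, the lowest being DKO library 1 with 65 counts.
Kel, the Kell glycoprotein, stood at 6.36, 12 and 4.45 CPM in DKO and 16.3, 7.77 and 11.2 CPM in WT, again low in library 1 as well as library 3 (log2 fold change -0.63, SE 0.43; -0.36 without DKO library 3 and -0.32 without WT library 1). Ermap, an immunoglobulin-like membrane protein that carries the Scianna antigens in humans, stood at 31.4, 34.6 and 9.74 CPM in DKO, against 49.8, 33.8 and 42.2 CPM in WT (log2 fold change -0.74, SE 0.45; -0.35 without library 3). Epor, the receptor for the hormone that keeps erythroblasts alive, stood at 32.8, 25.1 and 7.20 CPM in DKO and 30.0, 24.0 and 31.4 CPM in WT, with only library 3 outside the WT range on the low side.

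**Figure D3:**
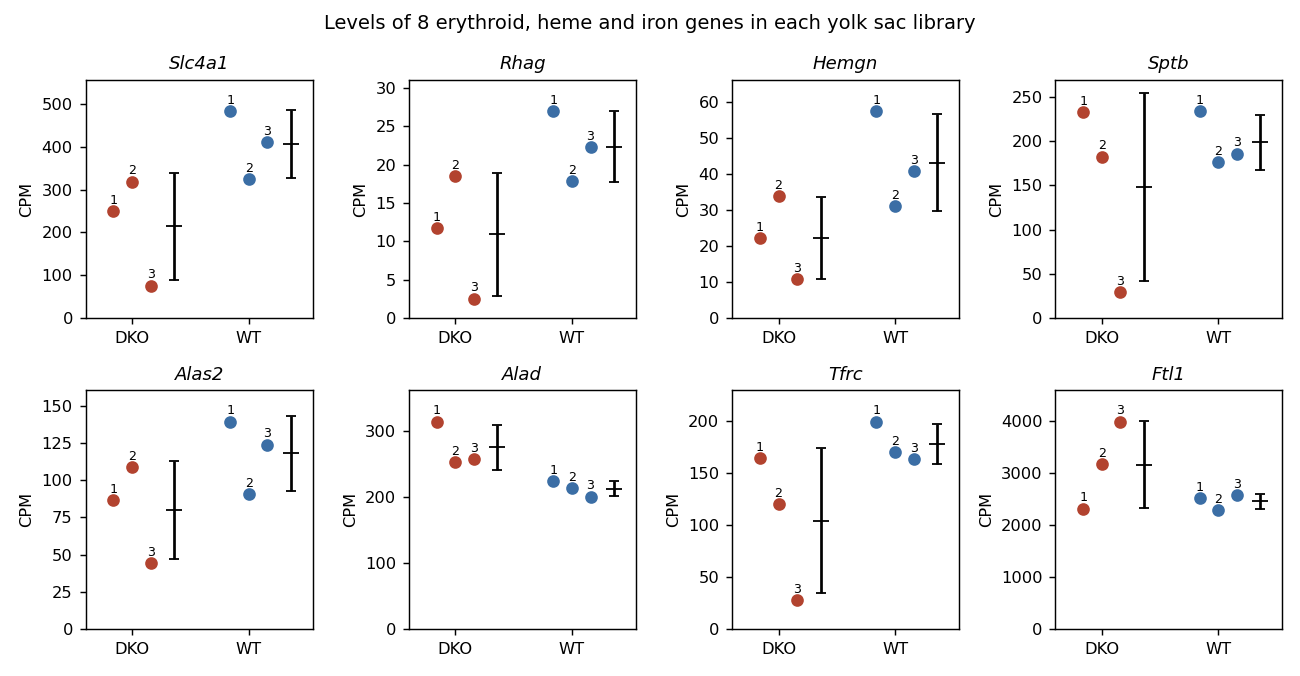
CPM (y axis, from 0) of 8 genes in each library, DKO left of WT, with the library number above each point and the mean and SD (n = 3) as a black mark beside each group. DKO library 3 is the lowest point for every gene but Alad and Ftl1, and DKO library 1 lies below all WT points for Slc4a1, Rhag, Hemgn and Alas2 but not for Sptb.

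Among genes of the red cell interior, Hemgn and Bpgm lay below all WT libraries in DKO libraries 1 and 3, and Trim10 and Car2 in library 3 alone. Hemgn, hemogen, a nuclear protein of erythroblasts, stood at 22.2, 33.8 and 10.8 CPM in DKO libraries 1, 2 and 3, against 57.5, 31.0 and 40.9 CPM in WT libraries 1, 2 and 3, with a log2 fold change of -0.96 (SE 0.43, edgeR adjusted p 0.569; -0.63 without DKO library 3). DKO libraries 1 and 3 lay below WT, and library 2 within it. Bpgm, which makes the 2,3-bisphosphoglycerate that lowers the oxygen affinity of adult hemoglobin, stood at 46.6, 64.0 and 36.5 CPM in DKO and 82.0, 59.7 and 62.2 CPM in WT (log2 fold change -0.47, SE 0.23; -0.30 without library 3 and -0.72 without library 2).
Trim10, an erythroid RING finger protein, had 38.2, 31.5 and 4.99 CPM in DKO and 36.3, 29.6 and 40.5 CPM in WT, with library 3 alone outside the WT range. Car2, carbonic anhydrase, which hydrates carbon dioxide in red cells and other tissues, stood at 199.9, 189 and 91.3 CPM in DKO, against 233, 174 and 213 CPM in WT, again with library 3 alone outside the WT range.

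The heme genes lay on both sides of WT. Of these 9 genes 7 were negative and 2 positive, and the median log2 fold change was -0.25. Alas2, the erythroid form of the first and rate-limiting enzyme, stood at 86.5, 109 and 44.0 CPM in DKO libraries 1, 2 and 3, against 139.5, 90.6 and 124 CPM in WT libraries 1, 2 and 3. Libraries 1 and 3 lay below WT, and the log2 fold change was -0.56 (SE 0.34, edgeR adjusted p 0.64; -0.28 without library 3 and -0.86 without library 2). Slc25a38, which imports the glycine that this enzyme uses, stood closer to WT, with 35.1, 38.1 and 30.8 CPM in DKO and 41.4, 37.7 and 45.3 CPM in WT (log2 fold change -0.26, SE 0.12).
Alad, the next enzyme, which joins 2 molecules of aminolevulinic acid into porphobilinogen, was the only one of the 35 genes in which all DKO libraries lay above all WT libraries. It stood at 315, 253 and 258 CPM in DKO and 225, 213 and 201 CPM in WT, with a log2 fold change of 0.37 (SE 0.12, unadjusted p 0.0155, edgeR adjusted p 0.432). Leaving out 1 library at a time gave fold changes from 0.26 to 0.42.
Of the enzymes that follow, Cpox, coproporphyrinogen oxidase, departed most. Its level was 379, 338 and 129 CPM in DKO and 432, 392 and 431 CPM in WT, with all DKO libraries below WT but library 1 close to it (log2 fold change -0.57, SE 0.37, edgeR adjusted p 0.663; -0.23 without library 3). Uros and Urod, which build and trim the porphyrin ring, stood at 67.8% and 61.2% of the WT mean in DKO library 3, and at 98.9% and 96.4% in library 1.
Fech, ferrochelatase, which inserts the iron, stood at 154, 186 and 124 CPM in DKO and 205, 170.1 and 197 CPM in WT, with libraries 1 and 3 low (log2 fold change -0.30, SE 0.16). Ppox, protoporphyrinogen oxidase, stood at 83.7%, 90.0% and 89.6% of the WT mean in DKO libraries 1, 2 and 3, all inside the WT range. Tmem14c, a mitochondrial membrane protein needed for the last steps of the pathway in erythroid cells, stood at 181, 172 and 127 CPM in DKO and 130.3, 111 and 159 CPM in WT (log2 fold change 0.26, SE 0.19), higher than WT in libraries 1 and 2 and within the WT range in library 3.

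Of the 7 genes of iron uptake and clusters, 4 had negative and 3 positive fold changes, and 0 passed the threshold. Slc25a37, mitoferrin, which takes iron into the mitochondrion, stood at 191, 177 and 62.8 CPM in DKO libraries 1, 2 and 3, against 308, 203 and 274 CPM in WT libraries 1, 2 and 3. All DKO libraries lay below all WT libraries (log2 fold change -0.87, SE 0.41, edgeR adjusted p 0.591; -0.51 without DKO library 3). Steap3, the endosomal ferrireductase, also lay below WT in every DKO library, with 24.4, 23.6 and 7.90 CPM in DKO and 36.3, 28.9 and 35 CPM in WT (log2 fold change -0.85, SE 0.41, edgeR adjusted p 0.596; -0.48 without library 3).
Tfrc, transferrin receptor, stood at 164, 120.2 and 27.6 CPM in DKO, against 199.5, 170.1 and 163 CPM in WT, with library 1 inside the WT range and libraries 2 and 3 under it (log2 fold change -0.77, SE 0.57; -0.33 without library 3 and -1.27 without library 1). Slc11a2, which lets iron out of the endosome and also serves intestinal uptake, stood at 88.7, 74.5 and 65.9 CPM in DKO and 72.0, 71.0 and 77.5 CPM in WT, a log2 fold change of 0.05 (SE 0.13) that turned to -0.07 without DKO library 1. Snx3, a sorting nexin that recycles transferrin receptor, had a log2 fold change of 0.12 (SE 0.12).
Glrx5 and Iscu, which assemble and hold iron-sulphur clusters, lay at -0.06 (SE 0.09) for Glrx5 and 0.11 (SE 0.12) for Iscu on the log2 scale. In DKO library 3 Snx3, Glrx5 and Iscu stood at 120%, 88.6% and 120% of the WT mean, where Tfrc, Steap3 and Slc25a37 stood at 15.6%, 23.7% and 24.0%.

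The ferritin chains, which store iron, had fold changes of opposite sign. Ftl1, the light chain, stood at 2320, 3169 and 3996 CPM in DKO libraries 1, 2 and 3, against 2522, 2295 and 2571 CPM in WT libraries 1, 2 and 3 (log2 fold change 0.36, SE 0.20, edgeR adjusted p 0.627; 0.15 without library 3 and 0.54 without library 1). Fth1, the heavy chain with the ferroxidase site, stood at 1469, 1099 and 755 CPM in DKO and 1129, 1170 and 1428 CPM in WT (log2 fold change -0.16, SE 0.25; 0.04 without library 3). In DKO library 3 the light chain was thus the highest and the heavy chain the lowest of the 6 libraries, and in DKO library 1 the heavy chain was the highest.
Both genes have processed copies, so their counts are uncertain if reads were shared out or dropped between copies. Ireb2, an iron regulatory protein that binds the hairpins shown above, stood at 97.8%, 91.2% and 83.3% of the WT mean in DKO libraries 1, 2 and 3. Of the genes with a match in the hairpin search, Alas2 and Fth1 had negative and Ftl1 positive fold changes with the same 5' position of the match. Tfrc, the only one with 3' matches, was negative.

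Per length of annotated exons, Ftl1 had the highest level of the set in WT, 1838 CPM per kilobase, the ninth place among 13740 tested genes ranked on this scale. Fth1 followed with 358 and Snx3 with 269 on this scale. Tmem14c at 146 and Alad at 114 led the heme genes, ahead of Cpox at 62.8 and Alas2 at 49.1. Of the red cell proteins Car2 at 85.3 and Slc4a1 at 83.0 were highest, while Sptb stood at 16.4, Ank1 at 7.16 and Tmod1, the lowest of the set, at 3.05. Exon lengths are unions over GENCODE transcripts, so a gene with long or rarely used exons reads too low on this scale.

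Summed, the genes held mainly to red cells stood in a similar proportion to the embryonic globins in all libraries. The 16 genes held mainly to red cells summed to 1136, 1154 and 341 CPM in DKO libraries 1, 2 and 3, against 1666, 1157 and 1428 CPM in WT libraries 1, 2 and 3. The summed embryonic globins Hba-x, Hbb-y and Hbb-bh1 stood at 7477, 9750 and 2625 CPM in DKO, against 12790, 8192 and 11210 CPM in WT. The ratio of the counts was 0.152, 0.118 and 0.130 in DKO libraries 1, 2 and 3, and 0.130, 0.141 and 0.127 in WT libraries 1, 2 and 3, so the range in DKO enclosed that in WT and library 3 lay within the WT range. The difference of the mean log2 ratios was 0.00 (SD 0.18 in DKO and 0.08 in WT), and it ran from -0.10 to 0.08 when each library was left out. The 19 broadly expressed genes summed to 6515, 6857 and 6624 CPM in DKO and 6411, 5977 and 6745 CPM in WT, a sum in which ferritin predominates.
By role the values relative to the globins were unlike, and they depend on the globin taken as reference. In DKO library 3 Hba-x, Hbb-y and Hbb-bh1 stood at 21.2%, 45.6% and 14.5% of the WT mean. The skeleton genes had a median of 15.3% there, close to Hbb-bh1. In DKO library 1 these globins stood at 81.8%, 25.9% and 85.4%, Hbb-y being far the lowest. The values that follow use the sum of the globins. In DKO library 3 the skeleton genes stood at a median of -0.67 (log2) relative to the globins, the surface genes at -0.01, the heme genes at 1.47 and the genes of iron uptake and clusters at 1.86. Most heme genes and most genes of iron uptake and clusters are broadly expressed. Their medians in DKO library 3 were 67.8% and 88.6% of the WT mean, where the summed globins stood at 24.5%. These medians thus lay above the globins but below the WT mean. Rhag at -1.10, Ank1 at -0.91 and Tmod1 at -0.90 were the lowest relative to the globins. Of the heme and iron genes held mainly to red cells, Slc25a38 stood at 1.60, Alas2 at 0.61 and Slc25a37 at -0.03. The broadly expressed Steap3, at -0.05, also lay close to the globins. In DKO library 1 the skeleton genes stood at 0.73, all 6 above 0, and the surface genes at -0.28.

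**Figure D4:**
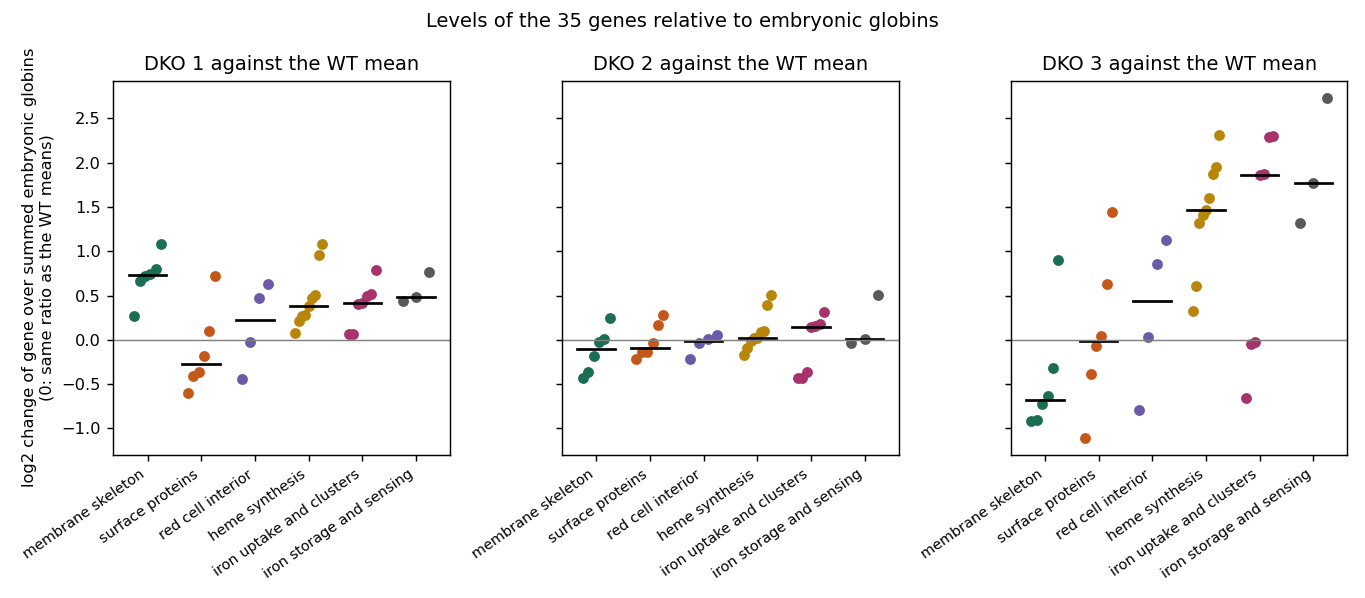
Change of each gene's level over the summed embryonic globins relative to the WT means (y axis, log2), by role, with a panel for each DKO library and a black line at the median of each role. DKO library 2 stays near 0, library 1 has the skeleton above and most surface genes below 0, and library 3 has most of the skeleton below and most heme and iron genes above 0. Most heme and iron genes are broadly expressed, and the summed globins stood at 24.5% of the WT mean in DKO library 3.

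DKO libraries 1 and 3 were both low in several surface genes and in Hemgn, while the skeleton genes and Epor were low in library 3 but mostly above the WT mean in library 1. In library 1, Rhd, Hemgn, Rhag, Kel and Slc4a1 stood at 46.0%, 51.4%, 52.5%, 54.1% and 61.3% of the WT mean, while Tmod1, Add2, Sptb, Epor and Ank1 stood at 147%, 122%, 117%, 115% and 115%. In library 3, Rhd, Hemgn, Rhag, Kel and Slc4a1 stood at 66.7%, 25.0%, 11.4%, 37.8% and 18.7%. There Tmod1, Add2, Sptb, Epor and Ank1 stood at 13.1%, 19.6%, 14.9%, 25.3% and 13.0%. These are values of single libraries with no replicate check. Rhd, Hemgn, Rhag, Kel and Slc4a1 were the lowest of the 35 genes in DKO library 1 by this measure. In that library Tmod1, Add2 and Epor lay above all WT libraries, and Sptb and Ank1 inside the WT range. The other skeleton genes, Epb41 and Epb42, stood at 111% and 83.7% of the WT mean there. The erythroid transcription factors were, as a sum, above all WT libraries in DKO library 1 and below them in library 3. The sum of 8, Gata1 and Klf1 among them, was 566, 340 and 95.8 CPM in DKO libraries 1, 2 and 3, against 447, 394 and 502 CPM in WT libraries 1, 2 and 3. In DKO library 1, 6 of the 8 lay above all WT libraries, while Klf1 lay inside the WT range. Below all WT libraries lay 7 in DKO library 2 and 8 in DKO library 3. The globin Hbb-y, like the surface genes, was low in library 1, at 674, 2991 and 1185 CPM in DKO and 3597, 1755 and 2448 CPM in WT, while Hbb-bh1 stood at 3635, 3286 and 618 CPM in DKO and 4825, 3463 and 4487 CPM in WT. A sum of 5 early blood progenitor genes, among them Kit and Gata2, was 122, 63.8 and 34.5 CPM in DKO and 58.7, 77.1 and 72.9 CPM in WT. Gata2 weighed most in DKO library 1, at 45.1 CPM or 419% of the WT mean. Myb, Runx1, Kit and Cd34 stood at 196%, 158%, 137% and 107% there. The part of these values in the results above was not tested.

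**Figure D5:**
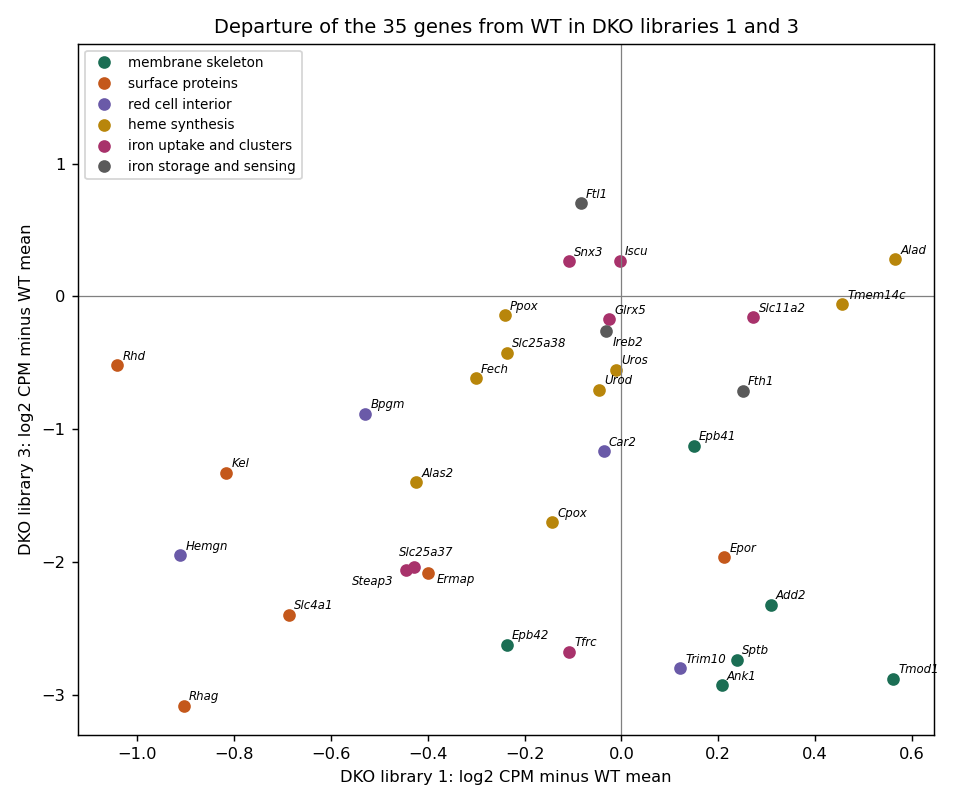
Each point is 1 of the 35 genes, placed by its log2 difference from the WT mean in DKO library 1 (x axis) and DKO library 3 (y axis) and coloured by role. Hemgn and the surface genes other than Epor lie left of 0, skeleton genes other than Epb42 lie right of 0 and below it, and Alad lies at the upper right.

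Within-library ratios of 3 gene pairs were compared, each by an exact two-sided permutation test, for which 0.1 is the smallest p that 3 against 3 libraries allow. Counts of Epor, a receptor used by early erythroblasts, over those of Slc4a1, which accumulates later, gave 0.132, 0.0789 and 0.0947 in DKO libraries 1, 2 and 3, against 0.0620, 0.0741 and 0.0765 in WT libraries 1, 2 and 3. All DKO ratios lay above all WT ratios, and the difference of mean log2 ratios was 0.50 (exact permutation p = 0.1, adjusted over the 3 pairs 0.15; from 0.29 without DKO library 1 to 0.66 without library 2). Tfrc over Fth1, iron uptake against storage, gave 0.112, 0.109 and 0.0366 in DKO and 0.177, 0.145 and 0.114 in WT. All DKO ratios lay below all WT ratios, library 1 by little, with a log2 difference of -0.91 (exact permutation p = 0.1, adjusted 0.15; -0.37 without DKO library 3).
Alas2 over Alas1, the erythroid against the housekeeping form of the first enzyme, gave 2.16, 1.91 and 0.706 in DKO and 3.12, 2.07 and 2.80 in WT. Here DKO library 1 lay above WT library 2, and the log2 difference was -0.88 (exact permutation p = 0.2, adjusted 0.2; -0.37 without DKO library 3). None of the ratios could pass 0.05 in this design.

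None of the other genes examined in the same pathways passed the threshold. Of 20 other red cell membrane genes 13 were negative (median -0.23) and 0 passed the threshold of edgeR, where 0.0357% of all genes did. Stom, stomatin, a membrane protein of red cells and other cells, lay above WT in every DKO library, at 19.9, 27.0 and 38.1 CPM in DKO, against 17.1, 11.8 and 13.0 CPM in WT (log2 fold change 1.02, SE 0.27, unadjusted p 0.00766, edgeR adjusted p 0.365). Xk, the membrane partner of Kell, lay below WT in every DKO library, at 14.8, 15.1 and 5.17 CPM in DKO and 23.5, 17.2 and 23.3 CPM in WT (log2 fold change -0.87, SE 0.41, edgeR adjusted p 0.586).
Of 15 other heme genes 6 were negative (median 0.05) and 0 passed. Hmox1, heme oxygenase, which breaks heme down, stood at 69.8, 70.4 and 97.8 CPM in DKO and 55.4, 63.8 and 61.2 CPM in WT, above WT in all DKO libraries (log2 fold change 0.40, SE 0.16, unadjusted p 0.0406, edgeR adjusted p 0.533). Blvrb, a biliverdin reductase abundant in red cells, had a log2 fold change of -0.53 (SE 0.53) and Fam210b, a mitochondrial protein of erythroid iron use, -0.48 (SE 0.36).
Of 22 tested genes among 27 other iron genes, 10 were negative (median 0.05) and 0 passed. Trf, transferrin, which the visceral endoderm secretes, stood at 773, 2051 and 4016 CPM in DKO, against 1431, 1214 and 1238 CPM in WT (log2 fold change 0.82, SE 0.53, edgeR adjusted p 0.659), so that library 1 was low and libraries 2 and 3 high. Tfr2, the second transferrin receptor, lay below WT in every DKO library, with 1.22, 2.62 and 1.32 CPM in DKO and 4.01, 2.87 and 2.88 CPM in WT (log2 fold change -0.92, SE 0.37, unadjusted p 0.0449, edgeR adjusted p 0.543), and Slc39a8, a metal importer, had -0.50 (SE 0.24).
Relatives of the red cell proteins that serve other cells, such as spectrins Sptan1 and Sptbn1 and ankyrins Ank2 and Ank3, had mostly positive fold changes. Of 14 tested, 12 were positive, with a median of 0.11, and 0 passed. The exchanger Slc4a2, at -0.035 (SE 0.148), and Car4, at -0.013 (SE 0.115), were negative. The relatives with the largest fold changes were Car12, a carbonic anhydrase, at 0.81 (SE 0.38) and Epb41l1 at 0.55 (SE 0.26). On the log2 scale relative to the WT mean, the median of these relatives was -0.15, 0.19 and 0.18 in DKO libraries 1, 2 and 3, where that of the 6 skeleton genes was 0.22, -0.24 and -2.68. In DKO library 1, 8 of the 14 relatives lay below all WT libraries.

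Markers of other cells of the yolk sac also differed between the DKO libraries. The sum of 10 visceral endoderm genes, Afp and Ttr among them, was 18390, 34800 and 53810 CPM in DKO libraries 1, 2 and 3, against 27790 to 33360 CPM in WT. Afp made up much of this difference, at 2222, 11540 and 31200 CPM in DKO, against 9856, 6784 and 7863 CPM in WT. The other members were not alike: in DKO library 3 Apoa1 stood at 168% of the WT mean, and Apob, Cubn and Sox17 at 80.2%, 74.5% and 66.0%. The sum of 8 mesoderm and mesothelium genes was 1937, 6965 and 8200 CPM in DKO, against 2593 to 4934 CPM in WT. Most of that sum came from Col1a1, Col1a2 and Col3a1, whereas Pdgfra and Hand1 stood at 184% and 195% of the WT mean in DKO library 1 and at 48.5% and 49.2% in library 3. The sum of 8 endothelial genes was 576, 556 and 352 CPM, against 441 to 537 CPM in WT. Its members were not alike either: in DKO library 3, 4 lay below all WT libraries and 2 above. There Tek and Kdr stood at 35.3% and 51.5% of the WT mean, and Pecam1 and Esam at 162% and 137%. The sum of 8 macrophage genes was 69.2, 114 and 164 CPM in DKO, against 67.8 to 88.6 CPM in WT, that of 7 megakaryocyte genes 46.2 to 48.3 CPM, against 32.8 to 43.5 CPM in WT, and that of 8 trophoblast genes 82.0, 11.6 and 304 CPM, against 11.6 to 38.6 CPM in WT. These are sums, in which the most abundant genes weigh most. Mrc1 made up most of the macrophage sum in WT and in DKO library 1. It stood at 92.2%, 136% and 98.1% of the WT mean in DKO libraries 1, 2 and 3. Csf1r stood at 2.51, 10.6 and 67.0 CPM in the DKO libraries, against 4.90, 4.27 and 2.28 CPM in WT. Of the trophoblast genes Ctsq was at 0 in all libraries and Tpbpa had at most 3 counts. Prl2c2 and Prl3d1 stood at 235 and 55.6 CPM in DKO library 3 and at 13.7 and 3.36 CPM in library 1. Tfap2c stood at 36.7 CPM in DKO library 1 and 0.958 CPM in library 3. The highest WT levels of Prl2c2, Prl3d1 and Tfap2c were 8.64, 4.81 and 5.54 CPM, in WT library 2. In the lists of the other cell types no gene was at 0 in all libraries. The part of these markers in the differences of the red cell genes was not tested.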

How the data were processed

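Raw read counts per gene from 6 mouse yolk sac mRNA libraries (3 DKO, 3 WT) were taken as the authors deposited them. The submitters' processing notes name mm10, SAMtools and DESeq2; aligner, counter, annotation and strandedness were not given in the sources used here. Depth was 20040601 to 56732836 counts a library, at which 3 counts are 0.0542 to 0.149 CPM. Low-count genes were removed with edgeR's filter (14002 kept), libraries were TMM-scaled, and DKO was compared with WT by edgeR's quasi-likelihood test (edgeR 4.0.16, R 4.3.3) with Benjamini-Hochberg adjustment over all genes kept. CPM values use the scaled library sizes. DESeq2 1.42.0, limma 3.58.1 (voom with library quality weights), other scalings and filters, a replicate block and leaving out each library were alternatives. The edgeR script was tested on simulated data. The 36 genes and all lists were chosen with earlier results of these data known. Within each role, values per library are given for the 3 genes with the largest absolute fold change and for any with groups that do not overlap or an unadjusted p under 0.05. Values per library are also given for other genes outside this rule, among them Tmod1, Rhd, Kel, Epor, Car2, Slc25a38, Fech, Tmem14c and Slc11a2. In the other pathway lists, named genes are the 2 with the largest absolute fold change at a mean of at least 5 CPM and any with an unadjusted p under 0.05. Genes named there outside this rule include Sptan1, Sptbn1, Ank2, Ank3, Slc4a2 and Car4. Classes (mainly erythroid, broadly expressed) and roles were assigned from general knowledge.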

Additional observations from a re-analysis of the deposited data

How the results depend on the processing

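No alternative changed the sign of the median of the 35 genes, which was -0.40 and ran from -0.56 to -0.09 when each library was left out, with 24 to 30 negative genes; with limma-voom and quality weights it was -0.14, with 26 negative. The number of all genes past the threshold, 5, was 288 with DESeq2, 2661 with limma-voom and quality weights, 8 with no filter other than at least 1 count, 23 at an adjusted p under 0.1, and 0 to 634 when each library was left out. Of the 35 genes, 2 were past it with limma-voom (Alad 0.26, Ftl1 0.38) and 0 under every other alternative. Of 525 fold changes of the 35 genes under 15 alternatives, 9 changed sign, none past the threshold: with limma-voom Add2 at 0.067, Rhd at 0.16 and Glrx5 at 0.020; and, when each library was left out, Sptb from -0.913 to 0.056, Tmod1 from -1.33 to 0.089, Add2 from -0.663 to 0.191, Epor from -0.825 to 0.017 and Fth1 from -0.425 to 0.044, each positive without DKO library 3, and Slc11a2 from -0.070 without DKO library 1 to 0.146. The cause was not tested. Without DKO library 3, 31 of the 35 fold changes moved by over 1.5 times. The ratios ran from -1.18 to -0.37 for Alas2 over Alas1, from 0.29 to 0.66 for Epor over Slc4a1, and from -1.18 to -0.37 for Tfrc over Fth1.

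The labels give both groups replicate numbers 1 to 3, but same-numbered DKO and WT libraries did not deviate together (correlations across genes of -0.371, -0.283 and -0.189), so the numbers were not taken as pairs. With the replicate number as a block, 1 of all genes and 0 of the 35 were past the threshold (762 and 1 at an unadjusted p under 0.05), and the median of the 35 was -0.50. The lowest count of any of the 35 genes in a library was 65.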
